A study of Mus musculus with 25 samples.

Results

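Cell cycle regulators were compared between αTC1 and βTC6, the mouse pancreatic lines used as models of islet alpha and beta cells. Members were the genes whose symbol names a cyclin of the A, B, D or E class, a cyclin-dependent kinase (CDK), a CDK inhibitor among those analysed here (Cdkn1a, Cdkn1b, the Cdkn2 genes and Cdkn3), an E2F factor, an Mcm helicase subunit or a Cdc gene, together with Rb1, Rbl1, Rbl2, Trp53, Mdm2, Mki67, Top2a, Aurka, Aurkb and Plk1. This rule uses no measured value, and it took 87 of 24439 genes in the RNA-seq tables, under 86 symbols, and 241 of 65053 consensus ATAC-seq peaks, on 80 genes. RNA-seq was made from 3 libraries of alpha TC1 clone 6 (αTC1) and 3 of Beta-TC-6 (βTC6), and ATAC-seq, which reads out open chromatin through transposase insertions, from 5 libraries of each line and from 9 mixtures that held 10% to 90% αTC1 cells. The lines were bought from a repository and grown in media that differ in serum and supplements, so line and medium cannot be told apart. αTC1 is a single clone. Nothing in the sources used here says whether the replicates were separate cultures, so all p-values measure the spread between these libraries, which may be technical.

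Both lines were established from islet tumours of transgenic mice that express the SV40 large T antigen, under a glucagon promoter for αTC1 and an insulin promoter for βTC6. T antigen binds the retinoblastoma family and p53, and its level was not analysed here. In untransformed cells, D cyclins activate Cdk4 and Cdk6, which phosphorylate the retinoblastoma proteins and so release E2F factors. E2F factors switch on genes for DNA replication, such as those of the Mcm2 to Mcm7 helicase, and cyclins E and A with Cdk2 then drive S phase, cyclin B with Cdk1 drives mitosis, and the anaphase-promoting complex ends it. Members of the Ink4 family (Cdkn2a to Cdkn2d) inhibit Cdk4 and Cdk6. The adult islet is known for rare division and for the use of Cdk4 and cyclin D2 in beta cell growth.

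The RNA-seq libraries held 21954031 to 26033482 expected counts and the pure ATAC-seq libraries 4397851 to 10374903 reads in peaks. Defining hormone genes matched the labels, with Gcg at 12113 to 14406 FPKM (fragments per kilobase, scaled to library size) in αTC1 and 172 to 267 in βTC6, and Ins2 at 0.19 to 0.64 and 23541 to 35748. The summed level of 4 duct markers was 8.15 to 14.35 FPKM in αTC1 and 6.96 to 13.3 in βTC6, and that of acinar, fibroblast, endothelial and leukocyte markers at most 3.73 in any library. βTC6 also carried the delta cell hormone gene Sst, at 207 to 325 FPKM against 0 in αTC1, and the PP cell marker Ppy, at 3.7 to 50.81 against at most 0.1. The other delta marker examined, Hhex, lay at or below 0.02 FPKM in βTC6 and at 0.06 to 0.13 in αTC1. Ttr, taken as an alpha marker, overlapped, at 657 to 929 FPKM in αTC1 and 544 to 1580 in βTC6. Whole chromosomes differed between the lines. The median log2 fold change (βTC6 over αTC1, as for all fold changes here) was 1.199 for the tested genes of chromosome 14, -0.76 for chromosome 6 and -0.67 for chromosome 1, and 1.54, -0.79 and -0.61 for their peaks. Copy number was not measured, and the part of these chromosome-wide medians in the value of a member was not tested, so they are given beside the members they touch.

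Of the 87 members, 79 reached 1 FPKM in each replicate of a line and were tested by edgeR. At an FDR under 5%, 51 (64.6%) were called, 17 (21.5%) higher in βTC6 and 34 (43.0%) in αTC1, against 74.6%, 38.7% and 36.0% of all 12195 genes tested. FPKM values did not overlap between the lines for 18 members higher in βTC6 and 36 higher in αTC1, where 37.3% and 40.4% of all genes did not (77.7% in both directions), and overlapped for 25. Differences were small beside those of other genes. With a change of over 2-fold added, 7 members were higher in βTC6 and 1 in αTC1, which is 10.1% of those tested against 31.6% of all genes (19.1% and 12.5% by direction), and the median absolute log2 fold change was 0.43 against 0.61. At the fold used in the study, an absolute log2 fold change over 2, Cdkn3 was the 1 member higher in βTC6 (background 10.2%, or 14.3% in both directions), and 0 were higher in αTC1 (background 4.08%), where 0 members passed that fold at an unadjusted p under 0.05 and 0 in DESeq2. Without the filter on low values, 1 did (Ccna1). The median log2 fold change of the members was -0.21, beside 0.01 for all genes. It was -0.12 with the chromosome medians subtracted, where 17 members were higher in βTC6 and 29 in αTC1, beside 36.5% and 34.6% of all genes. Scaling by the ERCC spike-ins, of which βTC6 replicate 3 held 0.971% of its counts against 0.436% to 0.723% in the other libraries, left calls for 7 and 1 members, beside 16.8% and 10.9% of all genes. Under that scaling the median log2 fold change of the members was -0.22, and single folds moved little while calls were lost, as for Rb1 (0.90, adjusted p = 0.116), E2f3 (-0.99, 0.0811), Mcm5 (0.69, 0.27), Cdk1 (-0.46, 0.5) and Mki67 (-0.43, 0.549), all by edgeR.

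**Figure D1:**
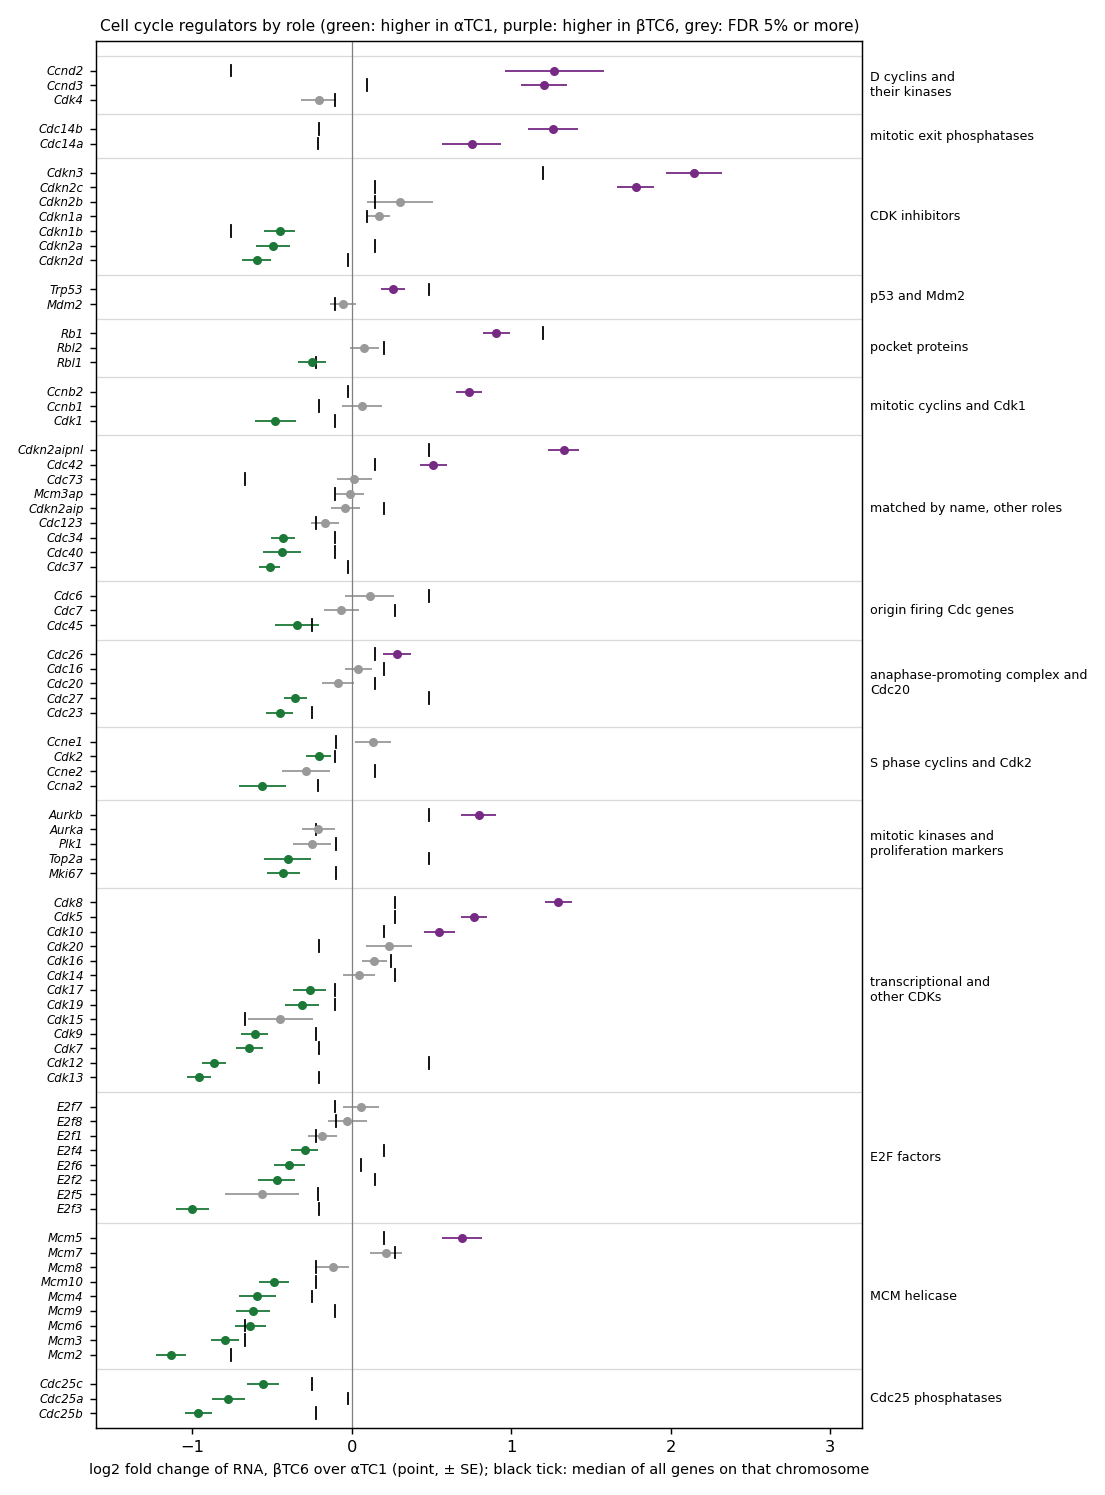
The log2 fold change of RNA, βTC6 over αTC1, of the 79 tested members, as points with standard errors, grouped by role. Green points were higher in αTC1 and purple ones in βTC6 at an FDR under 5%, grey points were not called, and each black tick marks the median of all tested genes on the chromosome of that gene. The 3 Cdc25 genes lie left of 0, and the D cyclins and Cdc14 phosphatases right of it.

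Of the D cyclins and their kinases, the 2 expressed cyclins were higher in βTC6 while Cdk4 was not called. Ccnd2 (chr6:127075797-127101066, mm9), the cyclin known for a role in beta cell growth, stood at 6.16, 6.27 and 9.13 FPKM in αTC1 and 14.47, 25.34 and 10.06 in βTC6. The groups did not overlap, but the βTC6 libraries spread widely. Its log2 fold change was 1.27 ± 0.31 (SE, adjusted p = 0.00493), on a chromosome with a median of -0.76, which gave 2.03 once subtracted, and 0.80 without βTC6 replicate 2. Ccnd3 (chr17:47642000-47736632) stood at 10.17, 11.36 and 8.97 FPKM in αTC1 and 22.47, 26.12 and 18.84 in βTC6. This is a log2 fold change of 1.203 ± 0.14 (adjusted p = 5.69e-05), and every βTC6 library lay above every αTC1 library. Ccnd1, the remaining D cyclin, was near absence, at 0.27, 0.31 and 0.33 FPKM in αTC1 and 0.18, 0.14 and 0.16 in βTC6. Cdk4 was the most abundant of these transcripts, with 337.46, 331.70 and 264.73 FPKM in αTC1 and 207.86, 208.93 and 260.92 in βTC6. Its log2 fold change of -0.21 ± 0.11 missed the threshold (adjusted p = 0.111), although the FPKM values did not overlap and limma on log2(FPKM + 1) gave -0.46 (adjusted p = 0.00865). It passed by edgeR without αTC1 replicate 3 (-0.28, adjusted p = 0.0289) or without βTC6 replicate 3 (-0.29, adjusted p = 0.037). Cdk6 lay at or below 0.05 FPKM in every library, so the D cyclin kinase transcripts of both lines were those of Cdk4.

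Among the 7 CDK inhibitors analysed here, 2 were higher in βTC6 (Cdkn2c and Cdkn3) and 3 in αTC1 (Cdkn1b, Cdkn2a and Cdkn2d), that is 28.6% and 42.9%, against 38.7% and 36.0% of all genes. Cdkn2c (chr4:109333481-109339794), which encodes the Ink4 protein p18, stood at 98.26, 101.18 and 101.06 FPKM in αTC1 and 328.64, 406.72 and 335.73 in βTC6. The αTC1 libraries were nearly level and each βTC6 library was over 3 times as high. The log2 fold change was 1.78 ± 0.12 (adjusted p = 1.18e-06), and chromosome 4 had a median of 0.15. Cdkn3 (chr14:47380216-47391200), a phosphatase that acts on CDKs and rises with proliferation, stood at 9.95, 9.79 and 10.90 FPKM against 39.31, 54.80 and 36.12. Its log2 fold change of 2.14 ± 0.18 (adjusted p = 4.92e-06) was 0.95 (adjusted p = 0.000984) once the chromosome 14 median of 1.199 was subtracted, and 1.91, under the fold of the study, without βTC6 replicate 2.

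At the Cdkn2a locus the lines differed less. Cdkn2a, whose alternative starts give p16 and p19Arf, which gene-level values cannot separate, stood at 132.03, 147.03 and 151.00 FPKM in αTC1 and 93.34, 87.98 and 114.57 in βTC6 (log2 fold change -0.49 ± 0.11, adjusted p = 0.00228). Cdkn2b, its neighbour and the gene of p15, was far lower, at 6.86, 7.73 and 11.88 against 9.55, 10.10 and 11.87 FPKM, and was not called (0.30 ± 0.21, adjusted p = 0.211). The αTC1 range reached over the whole βTC6 range, and without αTC1 replicate 3 the difference was called, at 0.59 (adjusted p = 0.00747). Cdkn2d, the gene of p19Ink4d, had 104.27 ± 5.04 FPKM (SD, n = 3) in αTC1 and 66.41 ± 6.30 (n = 3) in βTC6 (-0.59 ± 0.09, adjusted p = 0.000304). This value is uncertain, since 94.3% of the 50-base words of the gene on mm9 (chr9:21092907-21095653) recur on the opposite strand of a second stretch of the chromosome (within chr9:123822917-123854663). Of the 2 Cdkn1 genes analysed, Cdkn1b, the gene of p27, was lower in βTC6 (-0.45 ± 0.10, adjusted p = 0.00207) on chromosome 6 with its median of -0.76. With chromosome medians subtracted it turned to 0.31 (adjusted p = 0.017). Cdkn1a, the p53 target that encodes p21, was not called, with 49.15 ± 1.70 and 53.78 ± 1.97 FPKM (SD, n = 3 each; 0.17 ± 0.07, adjusted p = 0.053), and was called without αTC1 replicate 3 (0.21, adjusted p = 0.0193).

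**Figure D2:**
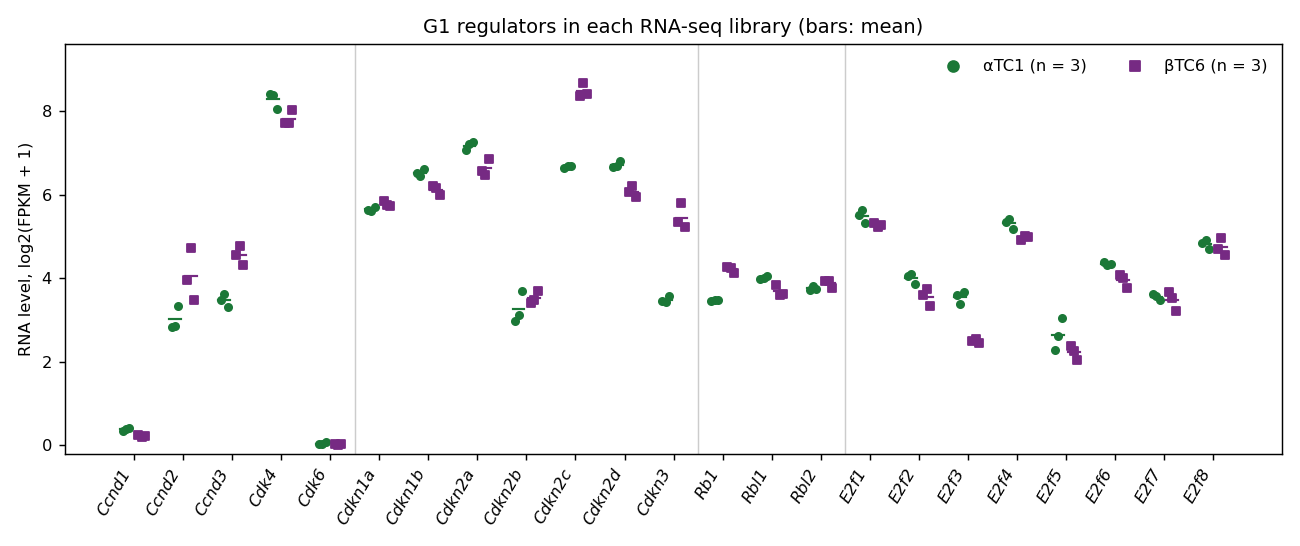
RNA level as log2(FPKM + 1) in each library for the D cyclins and their kinases, the CDK inhibitors, the pocket proteins and the E2F factors, with αTC1 as green circles, βTC6 as purple squares and bars at the means (n = 3 each). Cdkn2c, Cdkn3, Ccnd2 and Ccnd3 lie higher in βTC6 and E2f3 lies lower, while Ccnd1 and Cdk6 lie near 0 in both lines.

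The promoters of the 2 inhibitors that were higher in βTC6 are printed because they were unlike in the motif letters searched. The windows run from 250 bases before to 50 after the start and come from RefSeq on GRCm38.p6, 5′ to 3′ on the strand of the gene. Capitals mark the letters CCAAT, the CHR letters TTTGAA or TTCGAA, and the E2F letters TTTCCCGC, TTTGGCGC, TTTCGCGC or TTTGCCGC, on either strand. RefSeq gave 2 starts for Cdkn2c (chr4:109666707-109667006 and chr4:109665323-109665622, minus strand), and the first window holds none of these letters. The Cdkn3 window (chr14:46760291-46760590, plus strand) holds CCAAT 4 times and a CHR match once.
Cdkn2c, first start: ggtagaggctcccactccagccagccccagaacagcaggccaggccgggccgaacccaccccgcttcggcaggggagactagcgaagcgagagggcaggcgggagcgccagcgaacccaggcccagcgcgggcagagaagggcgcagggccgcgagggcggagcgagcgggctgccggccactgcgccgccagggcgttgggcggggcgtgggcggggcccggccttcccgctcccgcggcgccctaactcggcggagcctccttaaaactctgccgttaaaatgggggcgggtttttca
Cdkn2c, second start: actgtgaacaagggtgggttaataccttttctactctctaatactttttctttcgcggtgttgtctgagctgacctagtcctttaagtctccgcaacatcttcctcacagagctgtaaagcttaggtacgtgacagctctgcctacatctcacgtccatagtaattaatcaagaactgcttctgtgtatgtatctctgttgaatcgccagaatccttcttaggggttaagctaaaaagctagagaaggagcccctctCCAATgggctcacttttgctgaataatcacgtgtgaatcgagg
Cdkn3: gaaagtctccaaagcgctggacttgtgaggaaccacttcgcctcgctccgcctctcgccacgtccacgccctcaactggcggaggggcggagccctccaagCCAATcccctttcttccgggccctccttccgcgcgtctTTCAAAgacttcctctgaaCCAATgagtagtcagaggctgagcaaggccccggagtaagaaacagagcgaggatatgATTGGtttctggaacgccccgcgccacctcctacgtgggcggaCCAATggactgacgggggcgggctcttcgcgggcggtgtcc

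The pocket proteins bind E2F factors, and they differed from one another. Rb1 (chr14:73583480-73725629) stood at 10.03, 10.19 and 10.08 FPKM in αTC1 and 18.17, 18 and 16.35 in βTC6, without overlap. Its log2 fold change of 0.91 ± 0.09 (adjusted p = 1.19e-05) was below the chromosome 14 median of 1.199, and it turned to -0.29 (adjusted p = 0.0125) with chromosome medians subtracted. Rbl1, the gene of p107, was lower in βTC6 by a small margin (-0.25 ± 0.09, adjusted p = 0.0269), and this call was lost on leaving out any 1 of 5 libraries, all but βTC6 replicate 1 (adjusted p = 0.0596 to 0.07), and with chromosome medians subtracted (-0.02, adjusted p = 0.813). Rbl2, the gene of p130, was not called (0.08 ± 0.09, adjusted p = 0.45).

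Of the 8 E2F factors, 4 (50.0%) were higher in αTC1 and 0 in βTC6, where 36.0% and 38.7% of all genes were. E2f3, an activator, changed most, from 11.15, 9.42 and 11.76 FPKM in αTC1 to 4.67, 4.85 and 4.47 in βTC6 (-0.997 ± 0.10, adjusted p = 2.4e-05). The activator E2f2 (-0.47 ± 0.12, adjusted p = 0.00538) and the repressors E2f4 (-0.29 ± 0.08, adjusted p = 0.0107) and E2f6 (-0.39 ± 0.10, adjusted p = 0.00539) changed less, and E2f4 was not called without αTC1 replicate 2 (-0.24, adjusted p = 0.0626), and had -0.50 with chromosome medians subtracted. E2f1 was the most abundant member of the family, at 38.80 to 48.69 FPKM in αTC1 and 36.53 to 38.86 in βTC6 (-0.18 ± 0.09, adjusted p = 0.096), and was called without αTC1 replicate 3 (-0.26, adjusted p = 0.0108) or without the filter (adjusted p = 0.0489). E2f5 had -0.56 ± 0.23 (adjusted p = 0.0515) and was called without αTC1 replicate 1 (-0.75, adjusted p = 0.012), in DESeq2 (adjusted p = 0.0393) and without the filter (adjusted p = 0.0306). The atypical repressors E2f7 and E2f8, themselves E2F targets, had log2 fold changes of 0.06 ± 0.11 and -0.03 ± 0.12 (adjusted p = 0.659 and 0.853).

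The MCM genes were split. Of 9 helicase members, 6 (66.7%) were higher in αTC1 and 1 (11.1%), Mcm5, in βTC6, against 36.0% and 38.7% of all genes. Mcm2 (chr6:88833469-88848774) stood at 163.35, 168.42 and 138.20 FPKM in αTC1 and 70.27, 70.35 and 65.72 in βTC6, the largest log2 fold change in that direction among the tested members (-1.13 ± 0.10, adjusted p = 6.08e-06). Mcm5 (chr8:77633427-77652338) stood at 76.89, 77.63 and 60.03 FPKM against 110.50, 126.91 and 100.22 (0.69 ± 0.13, adjusted p = 0.000847). So βTC6 had more Mcm5 and less Mcm2 than αTC1, although both proteins enter the same ring. Mcm3 (-0.79 ± 0.09), Mcm6 (-0.63 ± 0.10) and Mcm4 (-0.59 ± 0.11) were lower in βTC6 (adjusted p = 3.9e-05, 0.000264 and 0.0012), and Mcm7 was not called (0.21 ± 0.10, adjusted p = 0.0817), except without βTC6 replicate 3 (0.28, adjusted p = 0.0372). These genes lie on chromosomes with unlike medians. With chromosome medians subtracted, Mcm2 had -0.37 (adjusted p = 0.00647), Mcm4 -0.34 (0.0232) and Mcm5 0.49 (0.00665), whereas Mcm3 had -0.12 (0.235), Mcm6 0.03 (0.766) and Mcm7 -0.06 (0.641). Outside the ring, Mcm10, an initiation factor, and Mcm9, a helicase of recombination repair, were lower in βTC6 (-0.49 ± 0.10 and -0.62 ± 0.11, adjusted p = 0.00141 and 0.000625), and Mcm8 was not called (-0.12 ± 0.10, adjusted p = 0.324). Subtracting chromosome medians left Mcm10 at -0.26 and Mcm9 at -0.51, and turned Mcm8 to 0.11.

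**Figure D3:**
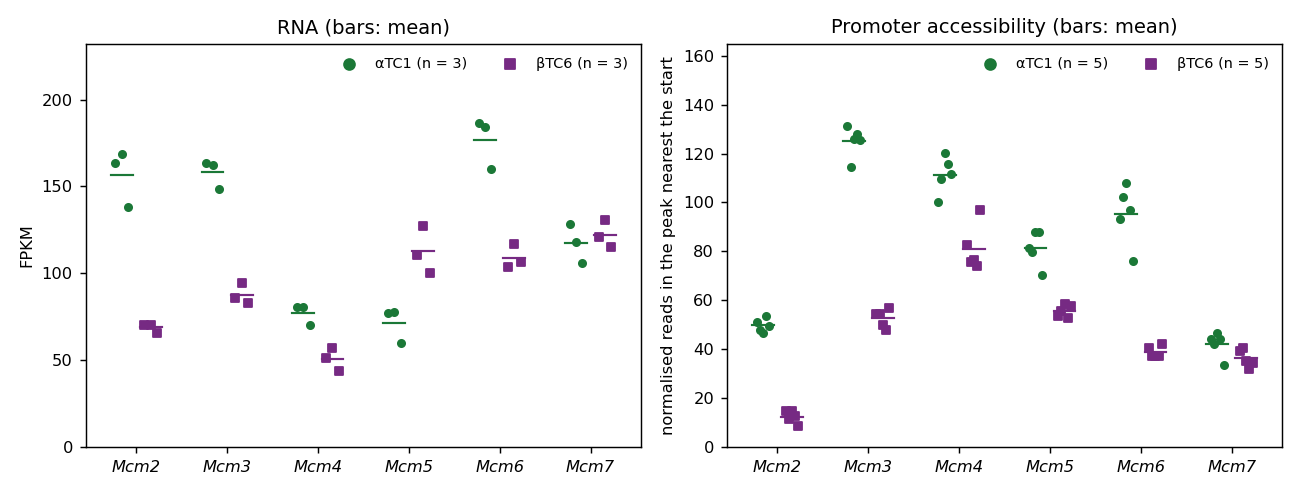
Level of Mcm2 to Mcm7 in FPKM (left, n = 3 libraries a line) and normalised ATAC-seq reads in the peak nearest the start of each gene (right, n = 5), with αTC1 as green circles, βTC6 as purple squares and bars at the means. For Mcm5 the RNA was higher in βTC6 and the promoter peak higher in αTC1, while for Mcm2, Mcm3, Mcm4 and Mcm6 both were higher in αTC1, except that the Mcm4 promoter had 0.03 after quantile normalization.

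The start windows of Mcm2 and Cdc25a are printed as those with the largest promoter changes among members tested in both assays, and those of Mcm5 and Mcm3 as helicase genes with RNA in opposite directions. Windows and capitals are as for the inhibitors, on GRCm38.p6 at chr6:88898731-88899030 (Mcm2, minus strand), chr1:20820263-20820562 (Mcm3, minus), chr8:75109259-75109558 (Mcm5, plus) and chr9:109875329-109875628 (Cdc25a, plus). Mcm3 and Mcm5 hold E2F letters 2 times, in Mcm5 as overlapping matches, Cdc25a holds them once and Mcm2 does not.
Mcm2: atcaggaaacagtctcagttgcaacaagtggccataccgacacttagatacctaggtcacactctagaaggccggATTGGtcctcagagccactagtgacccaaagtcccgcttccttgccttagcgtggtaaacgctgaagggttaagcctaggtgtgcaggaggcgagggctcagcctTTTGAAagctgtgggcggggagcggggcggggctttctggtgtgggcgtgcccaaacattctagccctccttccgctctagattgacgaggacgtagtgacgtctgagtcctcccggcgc
Mcm3: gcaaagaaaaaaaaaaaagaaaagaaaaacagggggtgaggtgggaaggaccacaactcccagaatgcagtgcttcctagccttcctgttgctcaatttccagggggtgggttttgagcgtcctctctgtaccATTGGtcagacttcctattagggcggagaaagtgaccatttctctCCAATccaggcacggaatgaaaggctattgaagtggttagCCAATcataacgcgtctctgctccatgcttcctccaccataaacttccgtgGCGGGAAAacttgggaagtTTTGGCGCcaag
Mcm5: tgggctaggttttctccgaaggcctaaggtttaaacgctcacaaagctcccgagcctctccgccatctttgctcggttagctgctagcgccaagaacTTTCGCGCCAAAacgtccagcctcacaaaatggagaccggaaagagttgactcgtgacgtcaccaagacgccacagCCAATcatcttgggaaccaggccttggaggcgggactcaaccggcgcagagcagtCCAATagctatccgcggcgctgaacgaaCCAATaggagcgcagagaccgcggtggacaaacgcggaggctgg
Cdc25a: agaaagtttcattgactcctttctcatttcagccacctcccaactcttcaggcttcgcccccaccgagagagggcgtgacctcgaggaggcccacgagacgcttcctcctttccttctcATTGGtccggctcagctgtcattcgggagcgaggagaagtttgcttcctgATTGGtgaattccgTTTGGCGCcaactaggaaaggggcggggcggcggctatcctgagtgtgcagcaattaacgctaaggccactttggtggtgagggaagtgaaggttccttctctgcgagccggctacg

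Over all members, 72 symbols had a RefSeq window and 14 had no match. E2F letters were present in 14 of the 72 (19.44%), against 2.6% of 27025 symbols and 2.26% of 32851 windows. CHR letters, known from late cell cycle genes, were present in 29.17% of members and 21.66% of symbols, and CCAAT in 58.33% and 41.06%. E2F letters were most frequent in the MCM group (5 of 8) and absent from the 4 mitotic kinases and proliferation markers with a window, all 4 of which held both CHR and CCAAT letters. Top2a alone held CHR letters 4 times and CCAAT 6 times. Of the 14 members with E2F letters, 9 were higher in αTC1, 1 (Mcm5) was higher in βTC6 and 4 were not called. Of the 58 without, 18 were higher in αTC1, 12 in βTC6, 22 were not called and 6 were not tested. Over all tested genes with a window, 42.4% of the 429 with E2F letters were higher in αTC1 and 32.6% in βTC6, against 35.3% and 39.3% of the 8234 without, and the difference between members with and without the letters was not tested.

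Among the other S phase genes, Ccna2, the gene of the S phase cyclin A, had 120.6 ± 15.8 FPKM (SD, n = 3) in αTC1 and 71.1 ± 11.2 (n = 3) in βTC6 (-0.56 ± 0.15, adjusted p = 0.00786), and was not called with chromosome medians subtracted (-0.35, adjusted p = 0.0633). Cdk2, its kinase, was lower in βTC6 at the edge of the threshold (-0.21 ± 0.08, adjusted p = 0.0426), and the call was lost without any 1 of the libraries other than βTC6 replicate 2 (adjusted p = 0.0639 to 0.124), in DESeq2 (adjusted p = 0.0636) and with chromosome medians subtracted (-0.10, adjusted p = 0.283). Of the E cyclins, Ccne1 had a log2 fold change of 0.13 ± 0.11 (adjusted p = 0.298) and Ccne2 -0.29 ± 0.15 (adjusted p = 0.109), the latter called without βTC6 replicate 2 (-0.45, adjusted p = 0.0218), by limma on log2(FPKM + 1) (-0.53, adjusted p = 0.00216) and with chromosome medians subtracted (-0.43, adjusted p = 0.0267). Ccna1, a cyclin of the male germ line, was under the filter, at 0.85, 0.82 and 1.41 FPKM in αTC1 and 0.10, 0.27 and 0.18 in βTC6, without overlap. Of the factors that load or fire origins, Cdc45 was lower in βTC6 at the edge of the threshold (-0.34 ± 0.14, adjusted p = 0.049), with overlapping FPKM values (38.93 to 46.34 in αTC1 and 27.68 to 39.96 in βTC6) and a value of -0.09 once the chromosome 16 median of -0.25 was subtracted. Cdc6 (0.11 ± 0.15, adjusted p = 0.514) and the kinase gene Cdc7 (-0.06 ± 0.11, adjusted p = 0.609) were not called. Subtracting chromosome medians turned Cdc6 to -0.37 and left Cdc7 at -0.33.

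The 3 Cdc25 phosphatases, which remove inhibitory phosphates from CDKs, were all lower in βTC6. Cdc25b fell most between αTC1 and βTC6, from 59.03 ± 5.41 to 30.56 ± 3.14 FPKM (SD, n = 3 each; -0.96 ± 0.09, adjusted p = 7.75e-06). Cdc25a (-0.77 ± 0.10) and Cdc25c (-0.55 ± 0.10) followed, with adjusted p = 0.000116 and 0.000869, the latter at -0.31 with the chromosome 18 median subtracted. The Cdc14 phosphatases, which act late in mitosis in yeast, differed the other way at low levels. Cdc14b (chr13:64293853-64376281) stood at 1.34, 1.17 and 1.41 FPKM in αTC1 and 3.63, 3.05 and 2.53 in βTC6 (1.26 ± 0.16, adjusted p = 7.39e-05), and Cdc14a had 0.75 ± 0.18 (adjusted p = 0.00467).

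Mitotic genes did not move as a block. Cdk1, the mitotic kinase, was lower in βTC6 (293.40, 291.83 and 296.01 against 193.87, 237.58 and 167.13 FPKM, -0.48 ± 0.13, adjusted p = 0.00746). Ccnb1, its main cyclin, was not called (0.07 ± 0.13, adjusted p = 0.644), and Ccnb2 was higher in βTC6, with 31.49 ± 1.01 and 50.47 ± 3.15 FPKM (SD, n = 3 each; 0.74 ± 0.08, adjusted p = 3.08e-05). Aurkb, a kinase of chromosome segregation and cytokinesis, was higher in βTC6 (0.80 ± 0.11, adjusted p = 0.00014) on chromosome 11 with a median of 0.48, and had 0.31 (adjusted p = 0.0284) with that median subtracted. Aurka, a kinase of the spindle poles, had -0.21 ± 0.10 (adjusted p = 0.0956) and was called without αTC1 replicate 3 or βTC6 replicate 2 (-0.28 and -0.31, adjusted p = 0.0285 and 0.0204). Plk1 had -0.25 ± 0.12 (adjusted p = 0.081), and was called without βTC6 replicate 2 (-0.40, adjusted p = 0.0059). Aurka and Plk1 were also called by limma on log2(FPKM + 1) (adjusted p = 0.0332 and 0.0304) and without the filter (adjusted p = 0.0495 and 0.0406). The proliferation marker Mki67 was lower in βTC6, at 148.25, 147.71 and 137.04 against 106.11, 110.61 and 92.46 FPKM (-0.43 ± 0.10, adjusted p = 0.00461). Top2a, the S and G2 phase topoisomerase, had -0.40 ± 0.15 (adjusted p = 0.0335), a call lost without any 1 of αTC1 replicates 1 and 2 and βTC6 replicates 1 and 3 (adjusted p = 0.0844 to 0.0948). Top2a lies on chromosome 11 with a median of 0.48, and with chromosome medians subtracted it had -0.89 (adjusted p = 0.000577). In the anaphase-promoting complex, Cdc23 and Cdc27 were lower in βTC6 (-0.45 ± 0.08 and -0.35 ± 0.08, adjusted p = 0.00106 and 0.00222), Cdc26 was higher (0.28 ± 0.09, adjusted p = 0.0143), and Cdc16 and the activator Cdc20 were not called (0.04 ± 0.08 and -0.09 ± 0.10, adjusted p = 0.672 and 0.446). With chromosome medians subtracted, Cdc23 had -0.20, Cdc27 -0.84, Cdc26 0.14 and Cdc20 -0.23, and Cdc16 turned to -0.16.

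Trp53, whose protein is a target of T antigen, was slightly higher in βTC6, with 36.18 ± 1.60 and 42.00 ± 1.59 FPKM (SD, n = 3 each; 0.26 ± 0.07, adjusted p = 0.0106). Chromosome 11 had a median of 0.48, and with medians subtracted Trp53 turned to -0.22 (adjusted p = 0.0242). Without the filter on low values it was not called (0.21, adjusted p = 0.0518). Mdm2, the p53 ubiquitin ligase and itself a p53 target, was not called (-0.06 ± 0.08, adjusted p = 0.548).

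Of the 13 tested CDKs outside the core cycle, 3 (23.1%) were higher in βTC6 and 6 (46.2%) in αTC1, against 38.7% and 36.0% of all genes. Cdk8 (chr5:147042806-147114450), a kinase of the Mediator complex, stood at 13.82, 12.85 and 11.69 FPKM in αTC1 and 30.14, 29.91 and 29.88 in βTC6 (1.30 ± 0.08, adjusted p = 1.03e-06), with tight groups far apart. Its close relative Cdk19 went the other way (-0.31 ± 0.11, adjusted p = 0.0254). Cdk5, a kinase of neurons and secretory cells, was higher in βTC6 (0.77 ± 0.08, adjusted p = 2.71e-05), as was Cdk10 (0.55 ± 0.10, adjusted p = 0.000685). The kinases Cdk13, Cdk12, Cdk7 and Cdk9, grouped here after their values were seen and known for acting on RNA polymerase II as Cdk8 also does, were lower in βTC6, with log2 fold changes of -0.96 ± 0.08 for Cdk13, -0.86 ± 0.08 for Cdk12, -0.64 ± 0.09 for Cdk7 and -0.61 ± 0.08 for Cdk9 (adjusted p = 3.87e-06, 8.13e-06, 0.000123 and 0.000143). With chromosome medians subtracted, Cdk12 had -1.35, Cdk9 -0.38, Cdk19 -0.21, Cdk5 0.50 and Cdk10 0.35. Of the genes that the rule took by name but that act elsewhere, Cdkn2aipnl (chr11:51781163-51790836) changed most, from 19.40, 19.19 and 16.20 to 42.64, 46.94 and 41.23 FPKM (1.33 ± 0.10, adjusted p = 2.57e-06), on chromosome 11 with a median of 0.48, which left 0.84. The GTPase gene Cdc42 was also higher in βTC6 (0.51 ± 0.08, adjusted p = 0.000421), and the Hsp90 partner Cdc37 was lower (-0.51 ± 0.07, adjusted p = 9.81e-05). Cdc20b and a second identifier of Cdc73 were listed at 0 in all 6 libraries, and Ccnb3, Ccnb1ip1 and Cdk18 were below the filter.

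Other genes of the pathway, taken from lists of partners, replication, checkpoint, ubiquitin ligase, p53 and growth signal genes, were tested beside the members. Of 146 tested, 36 (24.7%) were higher in βTC6 and 74 (50.7%) in αTC1, with a median log2 fold change of -0.25, against 38.7% and 36.0% of all genes and a median of 0.01. Spindle checkpoint and kinetochore genes were higher in βTC6 for 3 of 26 and in αTC1 for 18, checkpoint kinase genes for 2 and 10 of 15, and E2F and DREAM partners for 1 and 7 of 10. Genes of nucleotide supply were at 1 and 6 of 9, genes of the replication fork at 9 and 11 of 29, and genes of the APC/C and SCF ubiquitin ligases at 9 and 6 of 21, with a median log2 fold change of 0.03. The p53 target genes held both directions, 7 and 9 of 20. Gadd45a, a stress gene, had 274.3 ± 2.0 FPKM in αTC1 and 55.7 ± 3.9 in βTC6 (SD, n = 3 each; -2.27 ± 0.08, adjusted p = 3.68e-08), which was -1.51, under the fold of the study, with the chromosome 6 median subtracted. Plk2 had 45.7 ± 2.2 and 10.7 ± 2.2 (-2.04 ± 0.13, adjusted p = 1.17e-06), which was -1.84, also under that fold, with the chromosome 13 median subtracted. Plk3 was higher in βTC6, at 7.8 ± 2.2 and 104.7 ± 18.1 FPKM (3.81 ± 0.21, adjusted p = 4.02e-07). Perp lay at or below 0.02 FPKM in αTC1 and at 12.35 to 16.24 in βTC6, and Phlda3 at 0.15 to 0.58 and 1.63 to 2.49 (2.76 ± 0.43, adjusted p = 0.00031). Of 16 growth signal genes tested, 4 were higher in βTC6 and 7 in αTC1, the former by more than the fold of the study, which 10.2% of all genes passed. Myc stood at 0.66, 0.70 and 1.66 FPKM in αTC1 and 7.63, 3.91 and 11.57 in βTC6 (2.91 ± 0.49, adjusted p = 0.000494). The early response genes Fos and Jun varied widely within βTC6, at 18.30 to 236.42 and 25.11 to 111.23 FPKM, and Fos overlapped with its αTC1 range of 8.37 to 26.63. Tbx3, a repressor of Cdkn2a transcription, was listed at 0 in the αTC1 libraries and lay at 8.59 to 11.30 FPKM in βTC6.

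At open chromatin, 183 (75.9%) of the 241 member peaks were called by limma at an FDR under 5%, with a gain of 63 (26.1%) in βTC6 and 120 (49.8%) in αTC1, against 78.0% of all 65053 peaks, 39.9% in βTC6 and 38.1% in αTC1. Promoter peaks, within 2 kb of a start, carried this lean. Of 84 member promoter peaks, 6 (7.1%) were higher in βTC6 and 61 (72.6%) in αTC1, and the lean was also that of promoters at large, of which 75.7% were called, 23.4% and 52.3% by direction. The median log2 fold change of member promoters was -0.47 and that of all 14581 promoter peaks -0.31. After quantile normalization 6 and 40 member promoters were called in βTC6 and αTC1, beside 26.9% and 39.5% of all promoters. Of the member peaks farther from a start, 38 and 35 of 107 outside genes and 19 and 22 of 46 inside genes were higher in βTC6 and αTC1. Together these were 37.3% in either direction, against 44.6% and 34.0% of all 50472 peaks at that distance, of which 78.7% were called. A further 4 peaks annotated to Cdkn2d lie between chr9:123832917 and 123844663, far from the gene, in the repeated stretch named above, and are not read here as Cdkn2d peaks. The peak at the start of Cdkn2d itself (chr9:21095343-21096149) held at most 0.205 normalised reads in any pure library, and 100.0% of its 50-base words recur in that stretch.

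The Mcm2 promoter peak (chr6:88848465-88848962) had 51.3, 47.9, 46.4, 53.5 and 49.5 normalised reads in αTC1 and 14.6, 11.3, 14.9, 12.6 and 8.4 in βTC6, the largest change of the promoter peaks (log2 fold change of normalised reads + 1 of -1.95 ± 0.13, adjusted p = 5.34e-11). The αTC1 libraries lay over 3 times as high as the highest of βTC6. The median of chromosome 6 peaks was -0.79, and the value with it subtracted was -1.16. The Cdc25a promoter had 72.3 ± 3.3 and 23.7 ± 1.8 (SD, n = 5 each; -1.57 ± 0.09, adjusted p = 4.1e-12), the Mcm6 promoter 95.3 ± 11.99 and 38.8 ± 2.3 (-1.27 ± 0.09, adjusted p = 2.99e-10) and the Mcm3 promoter 125.0 ± 6.2 and 52.6 ± 3.7 (-1.23 ± 0.08, adjusted p = 4.32e-11), the latter pair on chromosome 1 with a peak median of -0.61, which left -0.66 and -0.63. The Ccne1 promoter was more open in αTC1 (-1.31 ± 0.09, adjusted p = 1.82e-10) although its RNA was not called, and had -0.75 with the chromosome 7 peak median of -0.57 subtracted. The Cdk6 promoter was more open in βTC6 (22.3 ± 0.8 and 34.5 ± 3.7, 0.60 ± 0.10, adjusted p = 1.68e-05) although its RNA was near 0 in both lines, and had 0.29 (adjusted p = 0.0153) with the chromosome 5 peak median of 0.31 subtracted. It was not called with replicates 4 and 5 alone (adjusted p = 0.0681). The promoters of Rb1 and Cdkn3 were more open in βTC6 (0.53 ± 0.15 and 0.53 ± 0.10, adjusted p = 0.0038 and 8.23e-05), below the chromosome 14 peak median of 1.54, and both turned to -1.01 with chromosome medians subtracted (adjusted p = 1.75e-05 and 1.16e-07).

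Over the 74 members with both an RNA test and a promoter peak, the log2 fold changes had the same sign for 49, with a Pearson r of 0.572 and a Spearman rho of 0.514 across genes, which are not independent replicates and share chromosome-wide differences. Over all 9488 genes with both, 65.5% had the same sign and r was 0.744. Of 40 called in both assays, 29 were higher in αTC1 in both, 5 were higher in βTC6 in both (Cdc14b, Cdkn2aipnl, Cdkn3, Rb1 and Trp53) and 6 were opposite. Of the 5504 genes called in both, 50.4% were higher in αTC1 in both, 24.4% in βTC6 in both and 25.2% were opposite. Of the 5 promoters, that of Trp53 (0.54, adjusted p = 0.0187) was not called after quantile normalization (0.33, adjusted p = 0.176), with chromosome medians subtracted (0.42, adjusted p = 0.0651), with replicates 1 to 3 or 4 and 5 alone (adjusted p = 0.091 and 0.0809), or without αTC1 replicate 5, βTC6 replicate 1 or βTC6 replicate 3 (adjusted p = 0.0511 to 0.0664). That of Cdkn2aipnl (0.71, adjusted p = 0.007) was not called after quantile normalization (0.50, adjusted p = 0.0532) and had 0.45 without αTC1 replicate 5, and that of Rb1 had 0.35 without it. With replicates 4 and 5 alone, the promoters of Cdkn2aipnl (adjusted p = 0.0819), Cdkn3 (0.0873) and Cdc14b (0.184) were not called either. The 6 opposite members were Ccnd2, Cdc14a, Cdc26, Cdc42, Cdk5 and Mcm5, all with more RNA in βTC6 and a more open promoter in αTC1, the pattern of 1301 of the 1389 opposite genes overall. Ccnd2 had a promoter log2 fold change of -0.91 ± 0.14 (adjusted p = 8.07e-06), which was -0.12 (adjusted p = 0.423) with the chromosome 6 median taken out, and Mcm5 had -0.54 ± 0.08 (adjusted p = 8.3e-06), which was -0.07 (adjusted p = 0.439) after quantile normalization. Of the 2 promoter peaks annotated to the inhibitor Cdkn2c, the 1 nearest the start did not follow its RNA. It had 16.1 ± 3.9 and 14.2 ± 3.6 normalised reads (SD, n = 5 each; -0.17 ± 0.19, adjusted p = 0.409), and the other is not given here. The promoters of Cdk8 (-0.15 ± 0.13, adjusted p = 0.309) and Ccnd3 (-0.21 ± 0.11, adjusted p = 0.0965) were not called either. That of Cdk8 had -0.46 (adjusted p = 0.00496) with chromosome medians subtracted and 0.14 (adjusted p = 0.374) after quantile normalization.

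**Figure D4:**
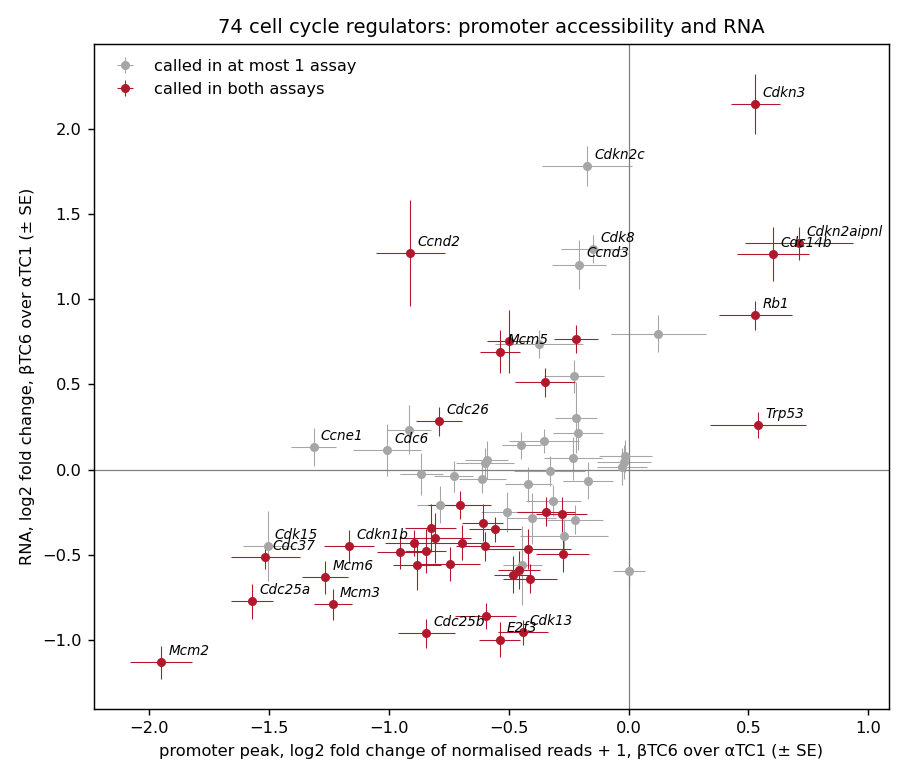
RNA log2 fold change against promoter peak log2 fold change, both βTC6 over αTC1 with standard errors, for 74 members; red points were called in both assays. Most red points lie at the lower left, where RNA and promoter were both higher in αTC1, and Ccnd2, Mcm5 and 4 other genes lie at the upper left.

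The largest differences lay away from promoters. At the fold of the study, 13 member peaks were higher in βTC6 and 9 in αTC1, together 9.1% of the 241 member peaks. Of all peaks, 12.9% and 5.38% passed this fold, or 18.3% in both directions. Both the member counts and their balance depended on the scale, with 20 and 11 at a pseudocount of 0.5, 1 and 2 at 5, 5 and 8 with a mean of at least 5, 7 and 12 after quantile normalization, and 26 and 14 by edgeR on recovered reads. Subtracting chromosome medians gave 10 and 7. Of the 22, 2 were among those annotated to Cdkn2d elsewhere and 0 were at promoters, where 6.93% of all promoter peaks passed this fold. The widest was inside Cdk6, 50.93 kb past its start (chr5:3394873-3395604), with 31.9, 29.9, 31.6, 33.7 and 42.8 normalised reads in αTC1 and 0.99, 1.64, 2.30, 3.28 and 0.75 in βTC6 (-3.71 ± 0.22, adjusted p = 8.48e-12). Every αTC1 library lay far above every βTC6 library, and the next peak within the gene, at 88.96 kb, went the other way (1.02, adjusted p = 9.26e-08). Downstream of Mcm5, 45.47 kb past its start (chr8:77678464-77679324), a peak had 68.2, 53.4, 56.7, 62.8 and 62.7 against 6.67, 6.56, 8.24, 4.14 and 4.601 (-3.16 ± 0.15, adjusted p = 3.64e-13). It was more open in αTC1, where Mcm5 RNA was lower. Ccnd1 had an αTC1 peak over the end of the gene, 10.26 kb past its start (23.2 ± 2.2 and 3.8 ± 2.0, -2.44 ± 0.25, adjusted p = 2.47e-08), beside RNA near absence. That peak had -1.87, under the fold of the study, with the chromosome 7 median subtracted.

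Of the βTC6 peaks, the one inside Cdk8, 6.51 kb past its start (chr5:147049503-147050011), had 1.96, 1.12, 1.05, 1.91 and 0.72 normalised reads in αTC1 and 26.7, 23.6, 19.2, 26.3 and 26.3 in βTC6 (3.45 ± 0.20, adjusted p = 7.38e-12), the line with more Cdk8 RNA. A peak 19.88 kb before Rb1 (chr14:73745202-73745750) had 0.14, 0.28, 0.15, 0.82 and 0.14 against 11.503, 14.4, 10.5, 15.6 and 11.3 (3.39 ± 0.21, adjusted p = 2.37e-11), and 1 to 6 reads stood behind the αTC1 values. The value was 1.86 with the chromosome 14 median subtracted. A peak 41.94 kb before Cdkn3 had 0.71 ± 0.45 and 9.80 ± 1.71 (SD, n = 5 each; 2.68 ± 0.22, adjusted p = 1.3e-09), and had 1.14 with the same median subtracted. Cdkn2b had peaks of both kinds. One 7.41 kb past its start was more open in αTC1 (15.8 ± 1.3 and 1.7 ± 1.0, -2.70 ± 0.23, adjusted p = 2.7e-09), and one 161.72 kb before it was more open in βTC6 (0.68 ± 0.31 and 7.496 ± 2.05, 2.32 ± 0.22, adjusted p = 6.91e-09). The other peaks past this fold lay near Mcm5, E2f6 and Cdk15 in αTC1 and near Cdk17, Mki67, E2f7, Cdc14a, Aurka, Cdk14, Cdk19, Mcm9 and Cdc7 in βTC6, and the annotation to the nearest start does not show which gene a distal peak acts on.

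The central 200 bases of the peaks at Cdk8 (chr5:147049658-147049857), Cdk6 (chr5:3395139-3395338) and Mcm5 (chr8:77678795-77678994) are printed from mm9 (plus strand) as distal sites more open in either line, beside RNA higher in the same line (Cdk8), near 0 in both (Cdk6) or lower in the line with the open site (Mcm5). They hold none of the E2F, CHR or CCAAT letters, so no base is in capitals.
Cdk8, 6.51 kb: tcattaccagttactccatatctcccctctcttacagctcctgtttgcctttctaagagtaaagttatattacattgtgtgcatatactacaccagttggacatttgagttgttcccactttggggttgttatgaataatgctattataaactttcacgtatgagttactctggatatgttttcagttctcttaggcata
Cdk6, 50.93 kb: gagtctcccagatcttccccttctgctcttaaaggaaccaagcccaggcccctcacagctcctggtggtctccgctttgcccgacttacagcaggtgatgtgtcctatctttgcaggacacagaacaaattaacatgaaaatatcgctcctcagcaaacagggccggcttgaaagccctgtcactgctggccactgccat
Mcm5, 45.47 kb: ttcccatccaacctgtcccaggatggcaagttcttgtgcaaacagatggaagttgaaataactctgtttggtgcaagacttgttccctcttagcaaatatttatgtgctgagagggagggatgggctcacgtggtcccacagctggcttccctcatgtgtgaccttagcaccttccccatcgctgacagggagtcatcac

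The mixtures combine cells of both lines in known shares. Peaks chosen for a large difference between the pure lines are bound to follow those shares, up to noise in the reads. The values therefore describe only how closely they did so. Each of the 22 member peaks past the fold of the study changed across the 9 mixtures in the direction set by the pure lines, which were separate libraries. Pearson's r with the βTC6 share had an absolute value of 0.652 to 0.980 (median 0.882), and 21 of 22 had an adjusted p under 0.05 in the exact permutation test over all orders (two-sided, Benjamini-Hochberg over 22 peaks). The largest was 0.0625, for the smaller Mcm5 peak. By Spearman's rho, 0.600 to 0.983 in absolute value, 20 passed. Without the 10% and 90% mixtures, r was 0.448 to 0.985 in absolute value and 14 passed. The Cdk8 peak had r = 0.978 (rho = 0.983, exact permutation adjusted p = 0.000303 and 0.000546), the larger Mcm5 peak r = -0.978 (rho = -0.967, exact permutation adjusted p = 0.000364 and 0.000606) and the Cdk6 peak r = -0.950 (rho = -0.933, exact permutation adjusted p = 0.000866 and 0.00183). Without the 10% and 90% mixtures these were 0.985, -0.956 and -0.939. The mixtures held 5277983 to 7294832 reads in peaks, and each share was a single library. Other peaks past this fold were not tested in the mixtures, so these counts cannot be set against a share of all such peaks.

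**Figure D5:**
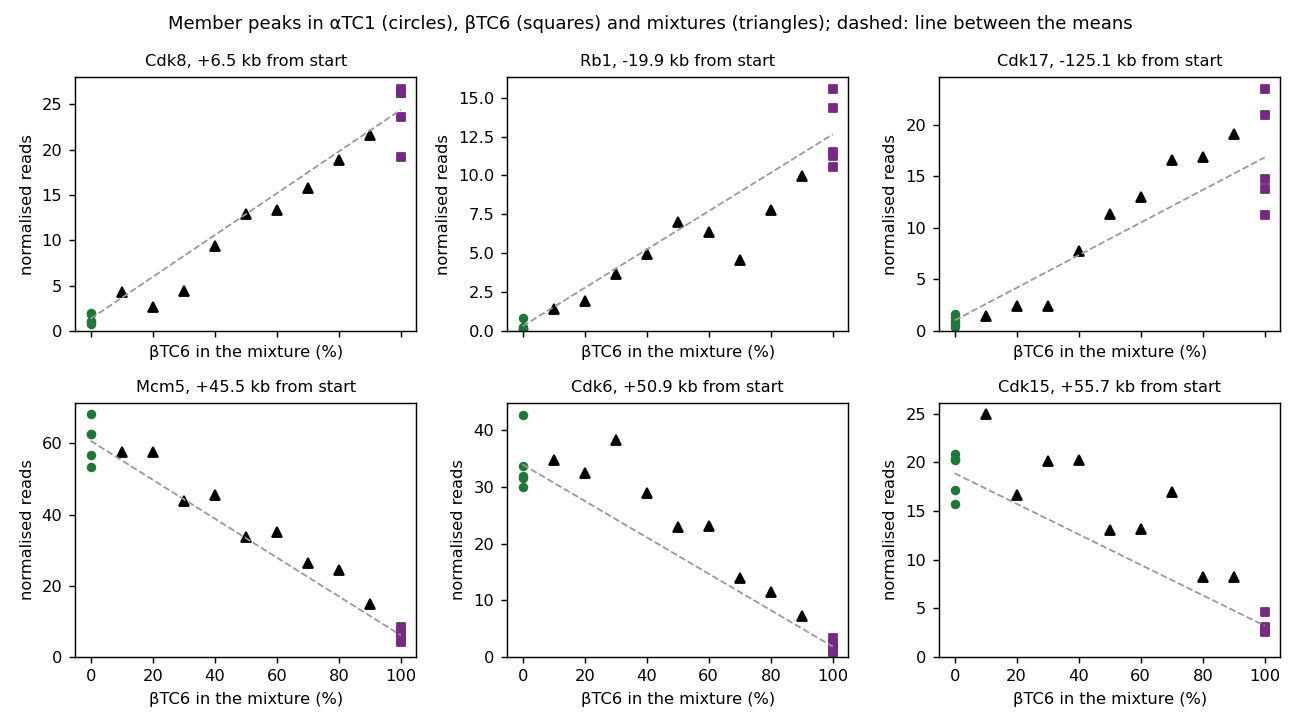
Normalised ATAC-seq reads against the percent of βTC6 cells for 3 member peaks a direction, those past the fold of the study that ranked first by moderated t, with the 5 αTC1 libraries at 0 (green circles), the 5 βTC6 libraries at 100 (purple squares), the 9 mixtures as black triangles and a dashed line between the means of the lines. The Cdk6 and Cdk15 mixtures lie above that line at all 9 shares.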

How the data were processed

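RNA-seq of αTC1 and βTC6 (3 libraries each) used a stranded mRNA kit with ERCC spike-ins. Per the labels and the methods of the study, reads were trimmed with Trim Galore 0.40 and aligned to mm9 with Bowtie2, and the authors deposited RSEM 1.2.12 expected counts and FPKM values per gene. ATAC-seq reads of 5 libraries a line and 9 mixtures were trimmed with Trimmomatic 0.32, aligned with BWA 0.7.9a, and called with MACS2 2.1.0. The authors deposited a signal per consensus peak, reads scaled to TMM library sizes, and 100.0% of values were whole reads within 0.01. Columns of the authors' own comparisons (peak class) were not used, and 0 sample columns were left unmatched.

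Expected counts were rounded, scaled by TMM and tested by edgeR 4.0.16 (quasi-likelihood, R 4.3.3) for genes that reached 1 FPKM in each replicate of a line, spike-ins left out. In the study the scaling drew on the spike-ins, and that is an alternative here. Peaks were tested by limma 3.58.1 with trend on log2(signal + 1), which understates the fold of low peaks. P-values were adjusted by Benjamini-Hochberg over all genes or peaks. SE is the log2 fold change over the root of F for edgeR. Mixtures were tested with exact permutation. Analyses in Python 3.11.15 used scipy 1.17.1. Both fits were tested on simulated data: edgeR called 100 of 100 genes changed by log2 1 and 15 of 11995 unchanged, and limma 97 of 100 peaks and 10 of 64853. The simulated features of an assay shared the same dispersion, and only a small set of well-covered ones was changed. Most features were called in the real data, so these rates need not hold there. Counting limits are 3 counts per library, and they cover counting error only.

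Named were the core members whatever their values, other members called with an absolute log2 fold change over 1, the peak nearest each start, the peaks past the fold of the study with the largest moderated t, and other pathway genes past a log2 fold change of 2. Further genes and peaks were named after their values were seen. 1 gene that fits the symbols is not reported here. Members and lists were chosen with earlier results of these data known. Alternatives were DESeq2 1.42.0 and its size factors, ERCC scaling, limma on log2(FPKM + 1), other filters, pseudocounts and normalizations, a replicate block, a term that sets ATAC-seq replicates 1 to 3 against 4 and 5 (a split that no label names) and leaving out each library. Subtracting chromosome medians from RNA and leaving out the distant Cdkn2d peaks were chosen after seeing the data. Replicates differed by more than sampling noise (chi-square per feature 2.06 to 40.9). The closest RNA pair was αTC1 replicates 1 and 2 (2.41), and ATAC-seq pairs among replicates 1 to 3 lay at 2.06 to 2.54.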

Additional observations from a re-analysis of the deposited data

Results flagged for a closer look

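Of 126 groups of 5 ATAC-seq libraries at the named peaks, 8 held a library set apart from the other 4 by Dixon's criterion, and chance gives about 1 in 20. Replicate 5 was the one apart in 7 of the 8. In αTC1, replicate 5 was high at the Aurka peak (1.44 normalised reads, others 0.420 to 0.682) and low at the promoters of Ccne1 (82.0, others 91.4 to 94.0) and Rbl2 (21.1, others 28.9 to 31.7). In βTC6, replicate 5 was high at the Aurka peak (11.2, others 5.74 to 6.39), the Cdk15 peak (4.601, others 2.57 to 3.08), the E2f3 promoter (121.5, others 91.1 to 95.7) and the smaller Mcm5 peak (3.94, others 1.43 to 2.13). αTC1 replicate 4 was high at the Rb1 peak 19.88 kb before the start (0.819, others 0.140 to 0.281), on 6 reads. The βTC6 replicate 5 library was the deepest, at 10374903 reads in peaks, and the part of depth in these values was not tested.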

How the results depend on the processing

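Counts of called members stayed within 1.5 times in most settings. The exceptions for RNA were ERCC scaling (7 higher in βTC6, 1 in αTC1), limma on log2(FPKM + 1) (0 past the fold of the study in βTC6) and no filter (1 in αTC1). For peaks past that fold, βTC6 had 20 at a pseudocount of 0.5, 1 at 5, 5 with a mean of at least 5, 7 after quantile normalization and 26 with edgeR on recovered reads, and αTC1 had 2 at a pseudocount of 5, 14 with edgeR, 12 after quantile normalization and 8 with a mean of at least 5. With a mean of at least 5, 41 peaks were called in βTC6, on fewer peaks tested. Leaving out each library gave 16 to 20 and 28 to 35 RNA calls, 0 to 1 and 0 past the fold, 60 to 63 and 110 to 122 peak calls, and 11 to 15 and 9 to 12 past the fold. The replicate block gave 17 and 34 RNA and 62 and 122 peak calls, with Cdk2 lost (adjusted p = 0.0645) and Plk1 and Ccne2 gained (0.0278 and 0.0423). Same-numbered libraries did not deviate together (r of -0.036 to 0.021 for RNA, -0.002 to 0.069 for ATAC), so numbers do not pair them. Replicates 4 and 5 stood apart from 1 to 3. Replicates 1 to 3 alone called 56 and 115 peaks, and 4 and 5 alone 45 and 84.

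Directions that turned among the genes and peaks named by rule were as follows, and the cause was not tested. With chromosome medians subtracted, RNA had Aurka 0.0155, Cdkn1b 0.307, E2f1 0.0399, E2f8 0.0687, Mcm6 0.0339, Mcm7 -0.0557, Mdm2 0.0498, Rb1 -0.293, Rbl2 -0.122 and Trp53 -0.223, and promoters had Cdkn3 -1.01, Rb1 -1.01, Plk1 0.0596 and Rbl2 0.0107. Of the members named after their values were seen, the RNA of Cdc6 turned to -0.371, Cdc16 to -0.162 and Mcm8 to 0.107 by that subtraction. On log2(FPKM + 1), Ccnb1 had -0.0751 and E2f7 -0.0892. Leaving out each library gave RNA of Ccnb1 -0.0995 to 0.1865, Ccne1 -0.0025 to 0.202, E2f7 -0.0109 to 0.1529, E2f8 -0.1836 to 0.068 and Rbl2 -0.0226 to 0.1566, and promoters of Cdkn2d -0.0179 to 0.017 and Rbl2 -0.1092 to 0.0318. After quantile normalization promoters had Aurkb -0.121, Ccnb1 0.109, Ccnd3 0.0257, Ccne2 0.0729, Cdk8 0.145, Cdkn2a 0.105, Cdkn2b 0.19, Cdkn2d -0.0533, E2f1 0.107, E2f5 0.0346, Mcm4 0.0312, Mcm7 0.147 and Rbl2 0.228. With edgeR reads, Cdkn2d had -0.0541. Replicates 1 to 3 gave Aurkb -0.0156, and 4 and 5 gave Cdkn2d -0.0287, E2f6 0.0762 and Rbl2 0.176.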

Other observations

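Within each library, ratios of FPKM between members were formed after the values were seen, and with 3 libraries against 3 an exact permutation test cannot go below p = 0.1, so they are given as values. Cdkn2c made up 28.1% ± 1.04 (SD, n = 3) of the summed Ink4 FPKM in αTC1 and 66.9% ± 3.16 (n = 3) in βTC6, and Cdkn2a 40.2% ± 0.993 and 18.6% ± 3.35. These sums hold the uncertain Cdkn2d value, and without it the Cdkn2c share was 39.8% ± 1.58 and 76.5% ± 3.97. The ratio of Cdkn2c to Cdk4 was 0.326 ± 0.0488 and 1.60 ± 0.331, and that of Cdk4 to the summed D cyclins 17.7 ± 3.05 and 6.21 ± 2.52. Mcm5 over Mcm2 was 0.455 ± 0.0188 and 1.63 ± 0.149, and Aurkb over Aurka 0.620 ± 0.117 and 1.12 ± 0.011. In these ratios the lines did not overlap. The ratio of Cdkn2a to Cdk4 did, at 0.468 ± 0.0922 and 0.436 ± 0.0142. The share of Ccnd3 in the D cyclins also overlapped, as did the ratio of the lowest to the highest Mcm2 to Mcm7 gene.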
